A study of Mus musculus with 6 samples.

Results

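The genes described here are 9 members of the LIN28 and let-7 axis and the oncofetal RNA binders that belong to it: Lin28a, Lin28b, Trim71, Dis3l2, Hmga1, Hmga2, Igf2bp1, Igf2bp2 and Igf2bp3. They were chosen by symbol, with earlier results of these data known. All 9 were found once each among the 51912 genes of the deposited count table. Messenger RNA came from R1 cells, an established mouse embryonic stem cell line that was grown in 2iLIF, a medium that holds the naive state with inhibitors of MEK and GSK3 and the cytokine LIF. All cells were then given 100 ng/ml FGF2 in N2B27, a serum-free medium, and were sampled after 24 h (3 libraries) or after 48 h (3 libraries). Both groups therefore carry the same treatment and differ by 24 h of it. No library of untreated cells was analysed here, so an effect of FGF2 cannot be told apart from that of time or of the change of medium. Whether the 3 libraries of a time came from separate cultures is not stated in the labels, so p-values here measure only the spread between these samples, which may be technical.

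LIN28A and LIN28B are small RNA-binding proteins with a cold shock domain and zinc knuckles. They bind precursors of the microRNA let-7, and LIN28A recruits terminal uridylyltransferases, after which the exonuclease DIS3L2 degrades the tailed precursor. Mature let-7 in turn represses mRNAs that carry its sites, among them those of Lin28a, Lin28b, Trim71, Hmga2 and the Igf2bp genes, which forms a loop known for holding cells in an immature, proliferating state. The Hmga genes encode chromatin proteins that bind the minor groove of AT-rich DNA, and they are grouped here as let-7 targets rather than as RNA binders. The IGF2BP proteins bind mRNAs through RRM and KH domains and affect their stability, transport and translation.

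To show what joins these genes, the mature let-7 family was read from RefSeq's GRCm38.p6 sequences, where all 12 family hairpins were matched by name. They give 9 distinct mature sequences of the 5′ arm, which all share 1 seed, bases 2 to 8, set in capitals.
let-7a: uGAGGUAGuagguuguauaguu
let-7b: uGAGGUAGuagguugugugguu
let-7c: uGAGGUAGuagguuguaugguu
let-7d: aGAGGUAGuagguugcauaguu
let-7e: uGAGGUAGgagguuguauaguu
let-7f: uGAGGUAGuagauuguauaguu
let-7g: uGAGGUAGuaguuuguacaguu
let-7i: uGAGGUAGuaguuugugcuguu
miR-98: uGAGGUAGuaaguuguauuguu

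The zinc knuckles of LIN28 are known to contact a GGAG motif in the let-7 precursor. GGAG lay between the mature arms of 9 of the 12 hairpins and was not found there in those of let-7b, let-7c-2 and miR-98. The same search on the hairpin's own strand found it in 44 of 633 other mouse hairpins with both arms known (6.95%). These other hairpins were not matched for the length of the stretch between the arms. The let-7g hairpin (chr9:106178840-106178927, plus strand) is shown with the motif in capitals, beside the let-7c-2 hairpin (chr15:85706603-85706697, plus strand), which has none.
let-7g hairpin: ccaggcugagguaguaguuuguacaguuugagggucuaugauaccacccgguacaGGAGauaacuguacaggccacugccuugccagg
let-7c-2 hairpin: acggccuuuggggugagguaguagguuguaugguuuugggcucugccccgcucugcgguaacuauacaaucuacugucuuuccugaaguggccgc
All 12 hairpin genes are listed at 0 counts in the 6 libraries. Mature microRNAs and their short precursors are not captured by libraries of this kind, so let-7 itself was not measured.

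The complement of the seed was then searched in the 3′ UTR of 1 transcript per gene of GENCODE M21 (GRCm38). A full site, called an 8mer, reads CTACCTCA on the mRNA strand, and the shorter 7mers are CTACCTC or TACCTCA outside such a site. Of the 9 genes 7 held at least 1 8mer, 13 sites in all. Among all 21670 3′ UTRs, 2.63% held one. Trim71 had 4, Igf2bp1 had 3, Lin28a had 2, and Lin28b, Hmga2, Igf2bp2 and Igf2bp3 had 1 each. Hmga1 had a single 7mer and Dis3l2, whose 3′ UTR is 347 bases long, had neither. The genes were named in part as known let-7 targets, so this count is a description of the choice. Each 8mer and the 7mer of Hmga1 is shown in its 30-base surroundings, with the site in capitals and its first base counted from the start of the 3′ UTR.
Lin28a base 909: agcctgttgaaCTACCTCAtttttgccgat
Lin28a base 1547: tcgccacaaacCTACCTCActgtgttgaaa
Lin28b base 36: gggcgggaagtCTACCTCAtgcaagcacag
Trim71 base 166: ttgcctaagtcCTACCTCAgcttaaatttt
Trim71 base 262: ataatttctatCTACCTCAactctttgcat
Trim71 base 3591: gtatggattttCTACCTCAattttggcaaa
Trim71 base 3617: caaaaagttgtCTACCTCAcgtcggcaccg
Hmga1 base 801: tctgttcacaaaCTACCTCtggacggttgt
Hmga2 base 21: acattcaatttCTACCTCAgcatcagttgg
Igf2bp1 base 1715: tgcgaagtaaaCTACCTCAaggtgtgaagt
Igf2bp1 base 4136: agtgctattaaCTACCTCAgccccagaggg
Igf2bp1 base 4730: aaatggatgaaCTACCTCAgtcctcacagt
Igf2bp2 base 1313: acaaataaaagCTACCTCAggtgtttttta
Igf2bp3 base 548: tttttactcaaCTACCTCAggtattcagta

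Long 3′ UTRs hold more sites by length alone, so each gene was set beside other 3′ UTRs of 80 to 125% of its length. For Lin28a (2775 bases), 4.996% of 2322 such UTRs held an 8mer and 0.258% held at least as many. The share of like UTRs with an 8mer was 8.64% for Lin28b, 5.42% for Hmga2, 3.97% for Igf2bp3 and 3.65% for Igf2bp2, each of which held 1. For Trim71 (5512 bases), 11.1% of 714 held one and none held 4. For Igf2bp1 (6337 bases), 12.2% of 508 held one and 0.394% held at least 3. Hmga2 had 1 8mer and 6 7mers in 2977 bases, and Lin28b had 1 8mer and 4 7mers in 4445 bases. The 4 Trim71 sites lie in close pairs, near the start of the UTR (within chr9:114512365-114512490) and far downstream (within chr9:114509010-114509065), both on the minus strand. A match of letters is a description and does not show that a site is used.

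The libraries held between 19574969 and 23133148 estimated counts, and each replicate pair differed by more than counting noise (chi-square of 1.80 to 2.26 per degree of freedom). Levels are given as CPM, that is, counts divided by the library's total after TMM scaling. The stem cell label was checked against marker lists. Pou5f1, which encodes OCT4, was at 1111 ± 1.99 CPM at 24 h and 1058 ± 15.2 CPM at 48 h (SD, n = 3 at each time), while Nanog fell from 694.7 ± 24.6 to 174.4 ± 6.47 CPM. Of the 8 pluripotency markers 5 fell, also Sox2, Zfp42 and Esrrb, and 3 rose: Dnmt3l from 212.5 ± 10.02 to 457.2 ± 4.76 CPM, Utf1 from 201.6 ± 5.98 to 304.8 ± 6.52 CPM and Sall4 from 302.4 ± 1.99 to 352.3 ± 7.89 CPM. The summed level of these 8 was 4488 to 4574 CPM at 24 h and 3283 to 3402 CPM at 48 h, that of 5 neural markers 127.0 to 136.6 and 144.9 to 157.1 CPM, that of 7 primitive endoderm markers 9.36 to 11.1 and 5.67 to 6.44 CPM, that of 5 trophoblast markers 27.5 to 28.5 and 6.996 to 7.76 CPM, and that of 5 primitive streak and mesoderm markers 15.7 to 18.5 and 12.8 to 14.8 CPM. Of the neural markers Sox1, Pax6 and Zic1 rose (log2 fold changes of 1.31, 1.56 and 1.86), while Nes and Tubb3 fell. Zic1 went from 0.42 ± 0.11 to only 1.55 ± 0.26 CPM. Cdx2, T, Gata6 and Sox17 had means below 0.5 CPM at both times. Other markers of those lists were present and fell, Krt8 from 20.6 ± 0.27 to 5.26 ± 0.54 CPM, Tfap2c from 6.60 ± 0.10 to 1.55 ± 0.24 CPM, Gata4 from 5.84 ± 0.86 to 2.25 ± 0.22 CPM and Eomes from 16.1 ± 1.35 to 13.2 ± 1.05 CPM. These lists moved between the times together with the genes below, and their part in those changes was not tested. In such bulk samples more RNA per cell cannot be told apart from more cells that carry it.

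The 48 h libraries were compared with the 24 h libraries to ask how the axis changed over the second day of FGF2. Of the 9 genes 5 rose (Lin28a, Lin28b, Trim71, Hmga1 and Igf2bp1), 3 fell (Dis3l2, Hmga2 and Igf2bp3), and Igf2bp2 did not pass the test (edgeR's quasi-likelihood fit, threshold 0.05 on the adjusted p). Over all 14889 genes tested, 62.8% were called by the same rule, 30.9% as higher and 31.9% as lower at 48 h, so a call on its own says little here and the sizes matter more. The median log2 fold change of the 9 was 0.42, beside -0.01 for all genes tested. Their summed level went from between 1920 and 1974 CPM at 24 h to between 2728 and 2753 CPM at 48 h. The largest gains in mean CPM were those of Lin28a (192.0 to 562.8), Igf2bp1 (654.6 to 888.6) and Trim71 (398.2 to 532.2). The sum thus does not describe each of the 9, of which 3 fell. All 9 passed the filter on low counts, with at least 455 counts in each library. Values of the times did not overlap for any of the 9, Igf2bp2 included, and this held for 66.9% of all genes tested.

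**Figure D1:**
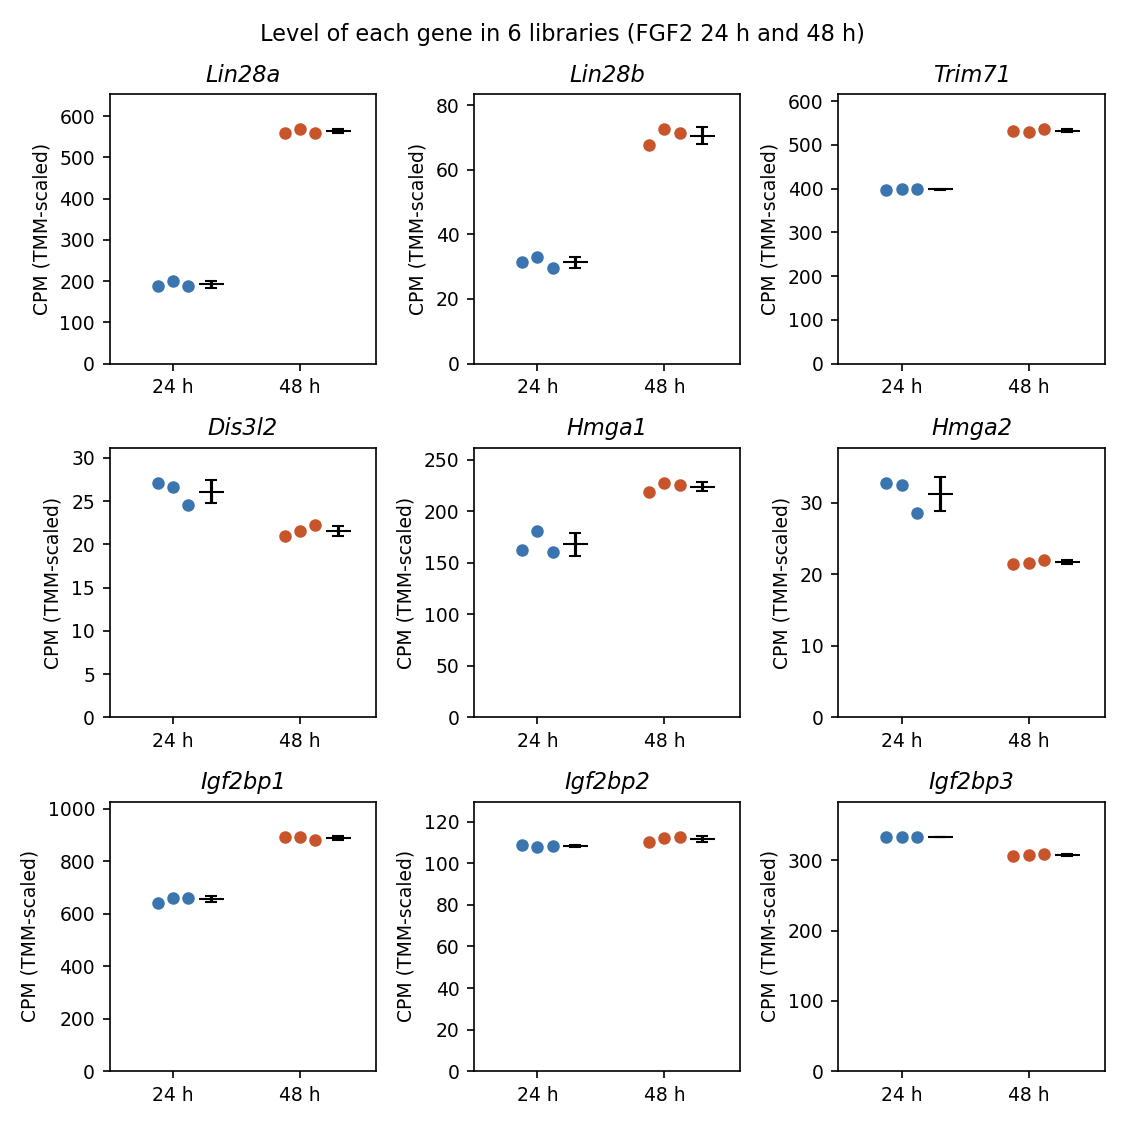
Level of each of the 9 genes in CPM (vertical axes, from 0) in the 3 libraries of 24 h (blue) and the 3 of 48 h (orange), with mean and SD as black bars. Each panel has its own scale. Relative to their level, Lin28a and Lin28b show the widest gaps between the times. The points of Igf2bp2 lie almost level, between 107.8 and 112.7 CPM.

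Lin28a (chr4:134003330-134018841, minus strand) had the largest change. Its 24 h libraries held 186.9, 201.0 and 188.0 CPM and its 48 h libraries 560.0, 568.4 and 559.9 CPM. Every 48 h value was thus nearly 3 times the 24 h values, with a fitted 2.93-fold rise (log2 fold change 1.55, SE 0.02, adjusted p = 1.38e-17 in edgeR's test). Of all genes tested, 4.997% changed by more in size. It shares 234 bases of exon with Gm13061, a non-coding gene on the opposite strand that held at most 4 counts in a library.

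Lin28b (chr10:45376620-45486395, minus strand), the paralogue that is known to be enriched in the nucleus and nucleolus, rose as well. It was at 31.4, 33.0 and 29.7 CPM at 24 h and at 67.7, 72.6 and 71.4 CPM at 48 h. The groups were far apart relative to their spread, and the fit gave a 2.25-fold rise (log2 fold change 1.17, SE 0.04, adjusted p = 8.68e-13 by edgeR). The rise of Lin28b was smaller than that of Lin28a. The log2 ratio of Lin28b to Lin28a counts was -2.61 ± 0.05 at 24 h and -2.996 ± 0.05 at 48 h (SD, n = 3), a difference of -0.38 (SE 0.04). The ratios of the times were apart in every library, with p = 0.1 by exact permutation (two-sided), which is the lowest p possible for 3 libraries against 3.

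**Figure D2:**
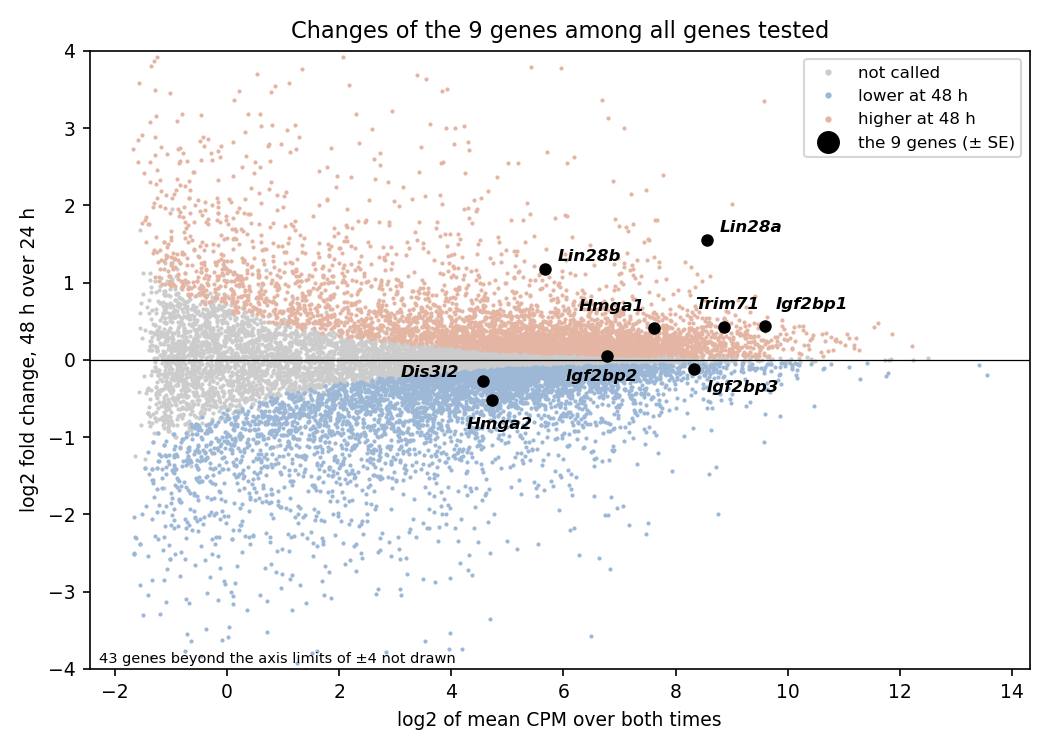
Log2 fold change, 48 h over 24 h (vertical axis), against the log2 of the mean CPM over both times (horizontal axis) for the genes tested, with the 9 genes as black points with SE. Lin28a (1.55) and Lin28b (1.17) rose most of the 9, and 43 genes beyond 4 in size are not drawn.

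Dis3l2 (chr1:86703808-87050095, plus strand), the nuclease at the end of the LIN28 pathway, moved the other way and by less. Its 24 h values were 27.1, 26.7 and 24.5 CPM and its 48 h values 20.9, 21.5 and 22.2 CPM. All 48 h values lay below the lowest 24 h value, and the log2 fold change was -0.27 (SE 0.06, adjusted p = 0.000562 by edgeR). Of the genes tested 48.9% changed by more in size, so this was an ordinary change for these libraries.

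Trim71 (chr9:114507133-114564369, minus strand), known as LIN41, encodes a protein that represses target mRNAs and is a classical let-7 target. It had 396.3, 398.6 and 399.6 CPM at 24 h and 531.4, 529.6 and 535.8 CPM at 48 h. The replicates lay within a few CPM of each other, and the rise was 1.34-fold (log2 fold change 0.42, SE 0.02, adjusted p = 1.4e-12 by edgeR). The log2 ratio of Trim71 to Lin28a counts, not scaled for length, was above 0 in every 24 h library and below 0 in every 48 h library, and went from 1.05 ± 0.06 to -0.08 ± 0.02 (SD, n = 3). That difference of -1.13 (SE 0.03) was the largest in size of the 6 ratios tested. Its exons share 135 bases with C130032M10Rik on the opposite strand, which held at most 15 counts in a library.

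The HMGA genes moved in opposite directions. Hmga1 (chr17:27556497-27563674, plus strand) was at 162.3, 180.3 and 160.7 CPM at 24 h and at 218.6, 227.3 and 225.2 CPM at 48 h, a 1.33-fold rise (log2 fold change 0.42, SE 0.03, adjusted p = 1.97e-08 by edgeR). Hmga2 (chr10:120361275-120476469, minus strand), whose 3′ UTR is a textbook case of let-7 repression, was at 32.8, 32.5 and 28.6 CPM at 24 h and at 21.5, 21.6 and 22.1 CPM at 48 h. It was lower in all 48 h libraries, by 30.3% in the fit; its log2 fold change of -0.52 (SE 0.06, adjusted p = 9.14e-07 by edgeR) was the largest fall of the 9 genes. The log2 ratio of Hmga2 to Hmga1 counts changed from -2.42 ± 0.10 to -3.36 ± 0.03 (SD, n = 3), a difference of -0.94 (SE 0.06).

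The counts of Hmga1 were fractional and need care. Hmga1b (chr11:120762794-120764419, plus strand), a gene of 1 exon, has a transcript that matched that of Hmga1 at 1535 of 1538 aligned positions (99.8%). RSEM divides reads that fit both, and it gave between 65.1% and 68.2% of the pair's counts to Hmga1b in every library. Hmga1b rose by a log2 fold change of 0.47 (SE 0.02). The sum of both genes rose by 0.45 (SE 0.02, adjusted p = 3.48e-12 by edgeR). Reads that fit both genes enter both rows, so their rises are not separate observations. The rise is best read from the sum, while the level and the change of Hmga1 itself are uncertain. Hmga2 had whole-number counts, and the antisense gene that shares 490 bases with it held at most 5 counts in a library. Hmga1 shares 102 bases with AI413582 on the opposite strand, which fell from 2.83 ± 0.19 to 1.03 ± 0.10 CPM (SD, n = 3).

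Among the IGF2BP genes, Igf2bp1 rose, Igf2bp3 fell slightly and Igf2bp2 was not called. Igf2bp1 (chr11:95957163-96005940, minus strand), whose protein binds Myc and Actb mRNAs among others, went from 641.4, 661.1 and 661.2 CPM to 892.1, 892.7 and 881.0 CPM. This 1.36-fold rise (log2 fold change 0.44, SE 0.02, adjusted p = 7.28e-13 by edgeR) was close in size to those of Trim71 and Hmga1. Larger changes were seen in 32.1% of genes tested for Igf2bp1, 33.8% for Trim71 and 34.1% for Hmga1. Its exons share 43 bases with the antisense gene Gm29202, which held at most 4 counts in a library.

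Igf2bp3 (chr6:49085223-49214957, minus strand), an oncofetal marker in human tumours, had 332.8, 333.4 and 333.7 CPM at 24 h and 305.7, 307.1 and 308.7 CPM at 48 h. It fell by 7.84%, a small change that was still wide of the spread between replicates (log2 fold change -0.12, SE 0.02, adjusted p = 2.57e-05 by edgeR). Among the genes tested 75.4% changed by more in size. Its exons share 1529 bases with Malsu1 on the opposite strand, which was at 18.4 ± 0.40 and 18.6 ± 0.88 CPM (SD, n = 3) and was not called.

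Igf2bp2 (chr16:22059009-22163299, minus strand), the family member that stays expressed in many adult tissues, had 108.6, 107.8 and 108.1 CPM at 24 h and 110.1, 112.3 and 112.7 CPM at 48 h. Its log2 fold change was 0.05 with a 95% interval from -0.01 to 0.10 (adjusted p = 0.134 by edgeR), and with library size as the only scaling it was -0.0135. No direction can be given.

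Within the family the balance shifted toward Igf2bp1. The log2 ratio of Igf2bp3 to Igf2bp1 counts went from -0.97 ± 0.02 to -1.53 ± 0.02, that of Igf2bp1 to Igf2bp2 from 2.60 ± 0.03 to 2.99 ± 0.03, and that of Igf2bp3 to Igf2bp2 from 1.62 ± 0.01 to 1.46 ± 0.01 (SD, n = 3). These ratios are taken within a library and do not depend on its scaling. For each of the 6 ratios tested the values of the times did not overlap. Several of these ratios share a gene, and how often other gene pairs would separate was not counted. Of all single genes tested, 66.9% had values that did not overlap. Each exact two-sided permutation test gave p = 0.1, also after adjustment over the 6, so none could pass 0.05 in this design.

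**Figure D3:**
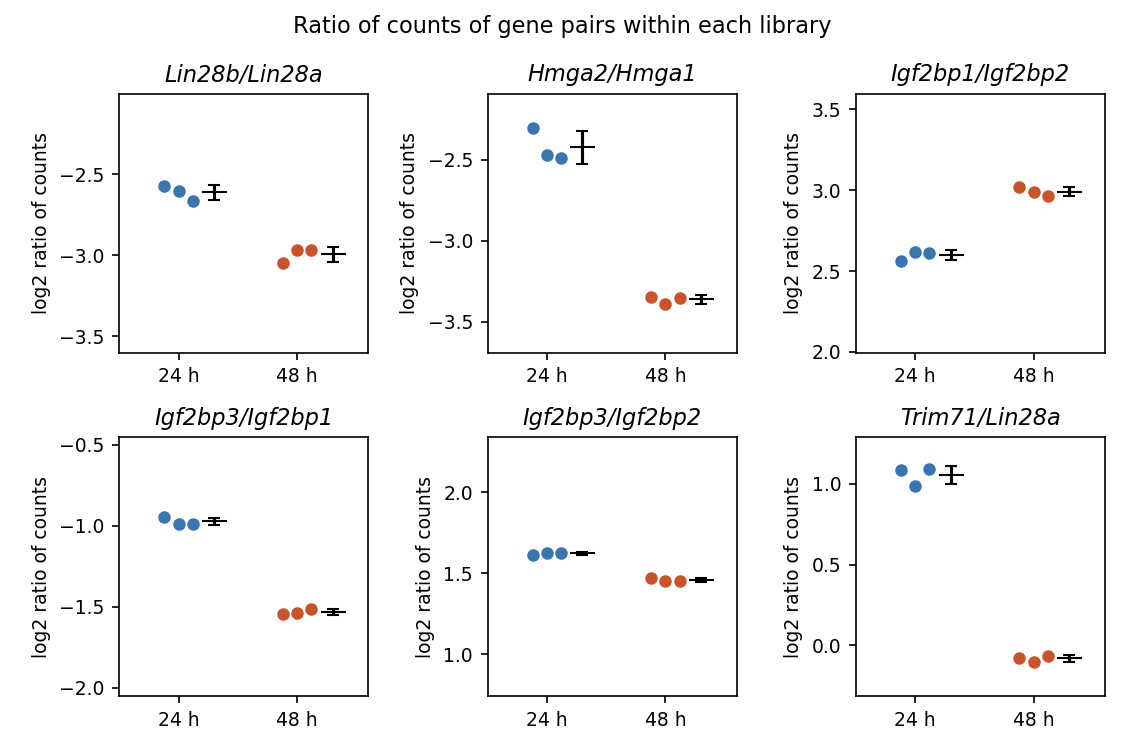
Log2 ratio of the counts of 6 gene pairs in each library (vertical axes, each spanning the same range) at 24 h (blue) and 48 h (orange), with mean and SD as black bars. In counts not scaled for length, Trim71/Lin28a crosses from 1.05 to -0.08. Per kb of transcript, Lin28a was above Trim71 already at 24 h (54.8 against 42.7 CPM per kb). Hmga2/Hmga1 falls from -2.42 to -3.36, with Hmga1 taken without the reads given to Hmga1b.

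To compare genes with each other, CPM was divided by the length of the transcript in kb. At 24 h Hmga1 had the highest level, 83.8 ± 5.44 CPM per kb (SD, n = 3), followed by Igf2bp1 (78.1 ± 1.36), Igf2bp3 (76.7 ± 0.10), Lin28a (54.8 ± 2.23), Trim71 (42.7 ± 0.18), Igf2bp2 (27.7 ± 0.10), Dis3l2 (8.46 ± 0.44), Hmga2 (8.43 ± 0.63) and Lin28b (5.81 ± 0.31). The library values of Igf2bp1 and Igf2bp3 overlapped, as did those of Dis3l2 and Hmga2, and the other neighbours in this order did not. At 48 h Lin28a led with 160.6 ± 1.39 CPM per kb, ahead of Hmga1 (111.8 ± 2.26), Igf2bp1 (106.1 ± 0.79), Igf2bp3 (70.7 ± 0.35), Trim71 (57.0 ± 0.34), Igf2bp2 (28.7 ± 0.36), Lin28b (13.1 ± 0.48), Dis3l2 (6.98 ± 0.20) and Hmga2 (5.86 ± 0.08). By these levels Lin28a moved from the fourth place to the first and Lin28b from the last to the seventh. No neighbours overlapped at 48 h. The order depends on the transcript chosen: with the length of all exons of a gene joined, Igf2bp3 fell to rank 5 at both times, behind Lin28a and Trim71, and Dis3l2 ranked last at both. The first place of Lin28a at 48 h rests on leaving out the reads given to Hmga1b. With those added, as was tried after the data were seen, Hmga1 was at 250.8 ± 6.33 CPM per kb at 24 h and 342.7 ± 3.90 at 48 h (SD, n = 3), first at both times, and Lin28a was second at 48 h.

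**Figure D4:**
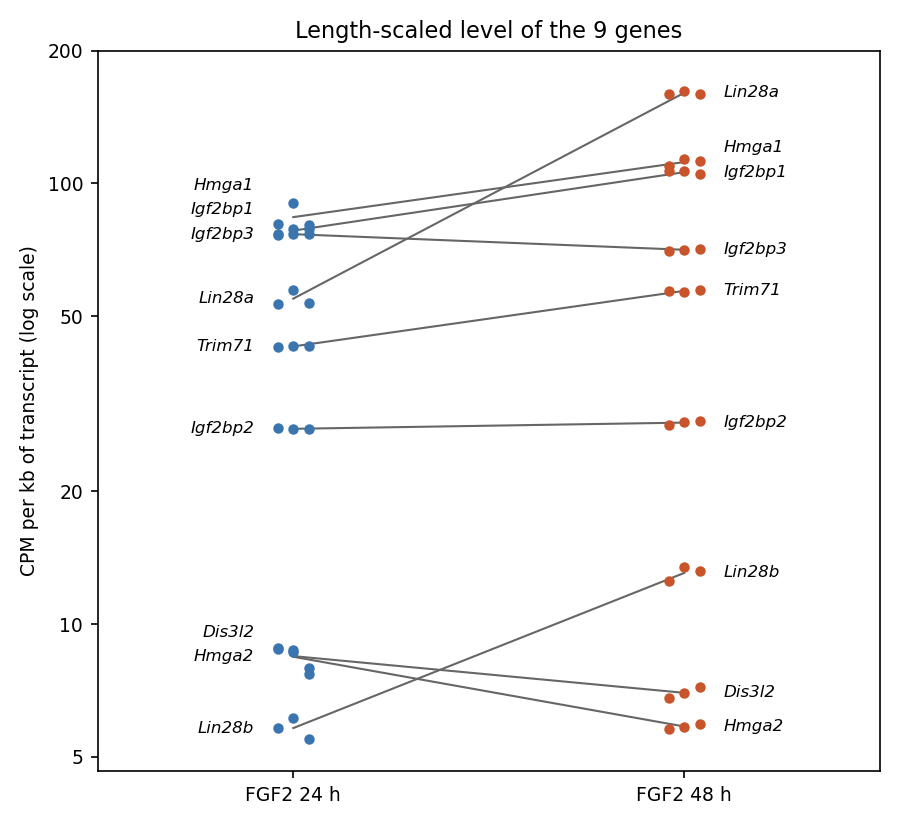
Level of the 9 genes in CPM per kb of transcript (vertical log axis) in the libraries of 24 h (blue) and 48 h (orange), with lines between the means. Lin28a rises from 54.8 to 160.6, Hmga1 is shown without the reads given to Hmga1b, and Lin28b crosses Dis3l2 and Hmga2.

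The genes whose profile over the 6 libraries lay nearest to that of Lin28a, by the distance between centred log2 CPM among 10427 other genes, were Sox4, Bend3 and Elmo1, with distances of 0.07, 0.10 and 0.10 and log2 fold changes of 1.59, 1.56 and 1.52. Nearest to Lin28b were Ptch1, Ank2 and Cnn2, with distances of 0.08, 0.10 and 0.10 and log2 fold changes of 1.18, 1.21 and 1.19. The median distance was 1.91 for Lin28a and 1.44 for Lin28b. With 2 time points such likeness reflects mainly a similar size of change.

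Of 27 listed genes that make microRNAs or control let-7 all were tested, 18 rose, 3 fell and 6 did not pass, with a median log2 fold change of 0.22. The share called was 77.8%, beside 62.8% of all genes tested. Drosha and Dgcr8, which form the nuclear Microprocessor, both rose. Drosha went from 319.1 ± 1.66 to 371.8 ± 3.43 CPM and Dgcr8 from 102.2 ± 1.01 to 112.6 ± 2.65 CPM (SD, n = 3), by 0.22 and 0.14 on the log2 scale. Dicer1, which cuts the precursor to its mature length and is itself a let-7 target, rose from 216.5 ± 1.102 to 255.6 ± 4.98 CPM (log2 fold change 0.24). The largest rises of the list were those of the exosome nuclease Dis3 (0.42), of Tut4 (0.40) and of Dis3l (0.37).

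The uridylyltransferases that act with LIN28 on pre-let-7 moved apart. Tut4 rose from 111.9 ± 4.41 to 148.1 ± 2.07 CPM (SD, n = 3), by 0.40 on the log2 scale (SE 0.03, adjusted p = 4.16e-09 by edgeR), whereas Tut7 fell from 49.9 ± 2.47 to 40.8 ± 2.42 CPM (log2 fold change -0.29, SE 0.05). Their values did not overlap between the times, which held for 66.9% of all genes tested. The other genes of the list that fell were Ago1 (-0.13) and Ago4 (-1.02), an Argonaute gene that stayed below 1 CPM at both times. Ago2, the Argonaute with slicing activity, was at 344.1 ± 0.48 and 336.2 ± 9.24 CPM and was not called.

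Transcripts that contain let-7 hairpins gave a partial view of the loci. Huwe1, whose introns hold let-7f-2 and miR-98, rose by 0.24 on the log2 scale, from 1025 ± 11.0 to 1211 ± 23.8 CPM (SD, n = 3). Wdr82, with let-7g in an intron, was at 268.7 ± 3.77 and 279.7 ± 7.16 CPM, a log2 fold change of 0.06 that was called (adjusted p = 0.0325 by edgeR) although its values overlapped. The non-coding gene 6720427I07Rik, with let-7a-1, let-7d and let-7f-1 in exons, stayed at 1.92 ± 0.21 and 1.84 ± 0.47 CPM and was not called. Spaca6, with let-7e in an intron, was at 2.39 ± 0.20 and 1.76 ± 0.16 CPM (log2 fold change -0.43, adjusted p = 0.0494). The remaining hosts were near 0 or absent. D630033A02Rik, with let-7i in an exon, was at 0.49 ± 0.09 and 0.43 ± 0.09 CPM and was not called. Of the hosts with let-7a-2 in an intron, 3110039I08Rik held 18 counts over all libraries and Gm49317 held 0. Mir99ahg, with let-7c-1 in an intron, held 0 counts. Lncppara, with let-7b and let-7c-2 in exons, was not in the count table. Host transcripts do not give the level of mature let-7.

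Other genes known as let-7 targets moved in both directions. Of the 32 listed and tested, 17 rose, 8 fell and 7 did not pass, with a median log2 fold change of 0.14 that was 0.0845 with library size as the only scaling. The share called was 78.1%, beside 62.8% of all genes tested. The largest rises were those of Prtg (1.37), Mycn (1.27) and Stard13 (1.17, below 2 CPM at both times). Mycn, a proto-oncogene and transcription factor, went from 122.3 ± 2.64 to 294.7 ± 10.5 CPM (SD, n = 3) and Myc from 19.8 ± 0.55 to 30.5 ± 0.89 CPM (log2 fold change 0.62). The largest falls were those of Igdcc3 (-1.18), Arid3a (-0.93) and the cell cycle kinase gene Cdk6 (-0.73), the last from 79.5 ± 1.37 to 48.0 ± 3.81 CPM. Prtg and Igdcc3, which encode related receptors of the immunoglobulin superfamily, were thus at opposite ends of the list.

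A view that did not rest on a chosen list took all tested genes with an 8mer in the 3′ UTR, the 9 genes left out. There were 425 such genes, 140 higher and 142 lower at 48 h, and their median log2 fold change was -0.04. Among 11181 genes with neither an 8mer nor a 7mer, 3495 were higher and 3864 lower, and the median was -0.02. With 3′ UTRs of at least 1000 bases, 35.4% of genes with an 8mer and 34.8% of those without any such site rose. Of the same groups 32.3% and 34.1% fell, and the median log2 fold changes were -0.02 and -0.0006. The genes with an 8mer still had longer 3′ UTRs, with a median of 2860 against 1896 bases. These shares are a description, and their difference was not tested.

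Targets that TRIM71 is known to repress moved in both directions. Of 6 listed genes 2 rose, E2f7 (log2 fold change 0.34) and Mbnl1 (0.22), 1 fell, Rbl1 (-0.23), and 3 did not pass, with a median of 0.05. The share called was 50%, beside 62.8% of all genes tested. Cdkn1a, the cyclin-dependent kinase inhibitor whose mRNA TRIM71 binds, was at 62.4 ± 0.83 and 62.6 ± 0.79 CPM (SD, n = 3). Its log2 fold change was 0.00 (SE 0.03, adjusted p = 0.916 by edgeR). With library size as the only scaling the list's median was -0.0098, so it has no stable sign.

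Of 15 partners and client mRNAs of the IGF2BP proteins 14 were tested, 11 rose, 1 fell (Stau1, -0.14) and 2 did not pass, with a median log2 fold change of 0.26. The share called was 85.7%, beside the same 62.8%. The RNA-binding partners Hnrnpu, Dhx9 and Syncrip rose by 0.35, 0.30 and 0.29 on the log2 scale. The largest rise was that of H19, a non-coding RNA bound by IGF2BP1, by 2.09 (SE 0.39), but from 0.24 ± 0.10 to only 1.02 ± 0.20 CPM (SD, n = 3). Igf2, the mRNA that gave the family its name, was at 0.64 ± 0.11 and 0.76 ± 0.22 CPM and was not called, and Cd44 had too few counts to test.

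**Figure D5:**
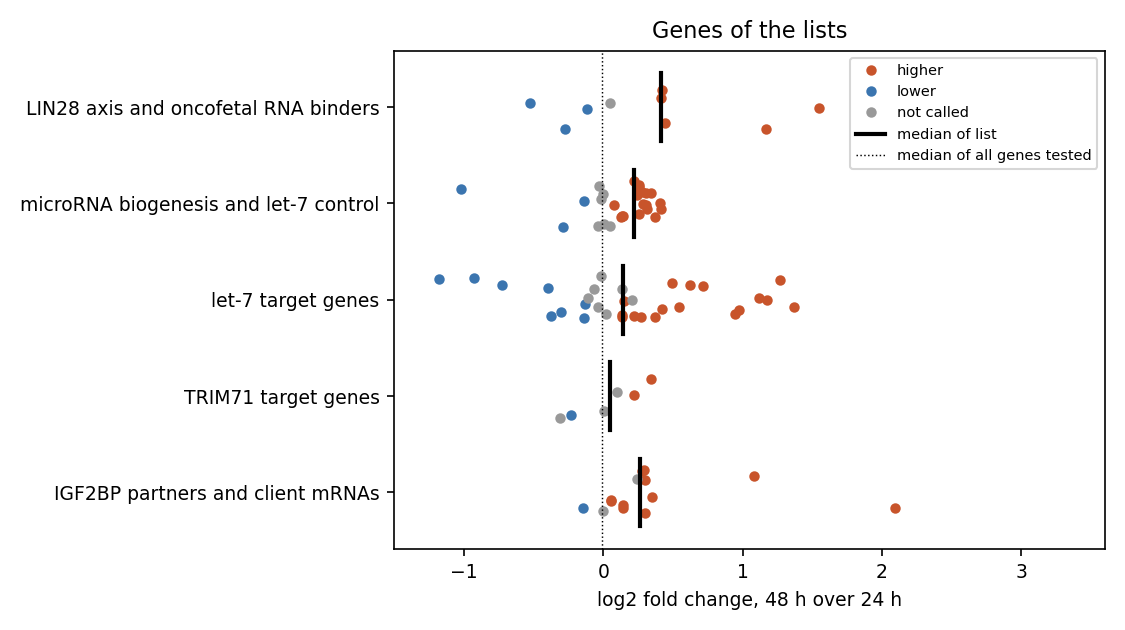
Log2 fold change, 48 h over 24 h (horizontal axis), of every tested gene in the 5 lists, coloured by its call, with the median of each list as a black bar and that of all genes tested (-0.01) as a dotted line; heights within a list are spread at random. The let-7 targets span both sides, from -1.18 to 1.37, and the median of the 9 genes is the highest at 0.42.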

How the data were processed

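RNA of 6 libraries (3 at 24 h, 3 at 48 h) was analysed from 1 table. The authors deposited expected counts per gene, estimated by RSEM per the submitters' processing notes and not scaled for depth or length. The submitters' processing notes name cutadapt 1.9.1, STAR 2.5.2, RSEM 1.3.0 and the build GRCm38; the annotation and the use of strand are not given in the sources used here. Each column name equalled 1 sample title. Symbols came from GENCODE M21 and matched 51633 identifiers. Transcript lengths, positions and 3′ UTRs came from that annotation, taking per gene the longest APPRIS principal coding transcript, or the longest other where none is principal.

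Counts were rounded, filtered with filterByExpr (minimum count 10), scaled by TMM and tested with edgeR's quasi-likelihood test (edgeR 4.0.16 in R 4.3.3), modelling time alone, and Benjamini-Hochberg adjustment over all 14889 genes tested. The SE of a gene's change is the size of its log2 fold change divided by the square root of F. The test was checked on simulated data. Counts are called whole within 0.005. Ratios used a prior count of 0.5. Gene lists were described by counts and medians, with no set test. The genes named are the 9, the 3 largest rises and falls called in each list, 10 preset genes and the 3 nearest profiles; other marker genes, host, overlapping and copy genes, Ago2, Dhx9 and Syncrip were named after their values were seen. A gene that this rule names is not reported here. The members and lists were chosen with earlier results of these data known. Let-7 sites, host genes and overlaps were added after the data were seen. Alternatives were RLE, upper quartile and library size scaling, 2 other filters, DESeq2 1.42.0, limma voom 3.58.1, unrounded counts, a replicate block, a threshold of 0.01, Hmga1 summed with Hmga1b and each library left out.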

Additional observations from a re-analysis of the deposited data

How the results depend on the processing

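Of 145 values of the 9 genes under the alternatives, 144 kept their direction and their side of the threshold, and 8 genes were called in each of the 16 settings fitted to all genes. The exception was Igf2bp2 with library size as the only scaling, at -0.0135 (adjusted p = 0.674; 0.0851 to 0.674 over its settings, none of which called it). Library size scaling moved the median of all genes from -0.01 to -0.07 and the share of called genes that were higher from 49.2% to 39.9%. It also set the list medians to 0.36 for the 9 genes, 0.16 for microRNA biogenesis, 0.0845 for let-7 targets, 0.20 for IGF2BP partners and -0.0098 for TRIM71 targets. Under the filter of 10 counts in all 6 libraries the median of IGF2BP partners was 0.24. With 1 library left out it ranged from 0.21 to 0.29, and that of let-7 targets from 0.149 to 0.172. The count of all called genes lay between 7810 (threshold 0.01) and 9792. With the replicate block 9235 genes were called, 9138 of them shared, and no call among the 9 changed. Deviations of libraries with the same number correlated at -0.05, -0.04 and -0.01, so replicate numbers were not taken as pairs. The cause of the shifts was not tested.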

Other observations

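The list of let-7 targets was split by its 8mers after the values were seen, so the counts are a description with no test. Of the 16 genes with an 8mer 4 rose, 6 fell and 6 did not pass, with a median log2 fold change of -0.05. Of the 16 without one 13 rose, 2 fell and 1 did not pass, with a median of 0.40. Of all tested genes with a 3′ UTR model 66.3% were called. Among the 9 genes, the 7 with an 8mer had a median of 0.42, 4 higher and 2 lower, and the 2 without one a median of 0.07, 1 higher and 1 lower.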
